A study of Homo sapiens with 8 samples.

Results

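The RNAs of 9 genes for heterogeneous nuclear ribonucleoproteins (hnRNPs) were examined as targets of TIA1 and of RBFOX2. The assay was eCLIP, which uses ultraviolet light to fix a protein to the RNA it touches, pulls the protein down with an antibody and sequences the RNA that comes with it. The genes were HNRNPU, HNRNPA1, HNRNPA2B1, HNRNPC, HNRNPD, HNRNPDL, HNRNPH1, HNRNPK and HNRNPM, and a peak was counted where it touched the gene's hg19 span, given to the nearest kb, on the gene's strand. This found 23 of 3215 TIA1 peaks (0.715% of that list) and 12 of 4227 RBFOX2 peaks (0.284%), or 35 of 7442 in all. All 8 libraries of the series came from HEK293T, a transformed line of human embryonic kidney origin: 2 TIA1 clip, 2 RBFOX2 clip, 2 TIA1 input and 2 RBFOX2 input libraries. Clip libraries hold the immunoprecipitated RNA, and input libraries hold RNA taken without that step. All cells were given 600 mJ of ultraviolet light, and no other treatment is named. For the clip libraries the labels name an antibody against the HA tag, do not say how a tag reached the proteins, and in a protocol shared by all 8 libraries mention TIA1-bound beads. Each protein has 1 joint peak list for both replicates, so no value had a replicate error, and every fold and p below is the authors' own value for that peak.

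The hnRNPs are abundant RNA-binding proteins that coat newly made transcripts and act in splicing, export, stability and translation of mRNA. Several of their genes limit their own output through alternatively spliced exons or introns that send the mRNA to decay. TIA1 favours U-rich stretches and acts in splicing, translational silencing and the assembly of stress granules. RBFOX2 controls alternative exons and recognises GCAUG, written GCATG in DNA letters.

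TIA1 peaks were listed on 7 of the 9 genes and RBFOX2 peaks on 5, all 5 of which also had TIA1 peaks. The RBFOX2 count rests in part on weak or short peaks: HNRNPC and HNRNPH1 had none with −log10 p of at least 5, and HNRNPU had none of at least 20 bases. The peaks were bunched near the 5′ ends of the spans. Of the TIA1 peaks, 19 of 23 had their centre within 1.5 kb of the 5′ end of the span, on 6 genes, and of the RBFOX2 peaks 10 of 12 did, on 3 genes. With peaks within 50 bases joined it was 9 of 12 in TIA1 and 5 of 7 in RBFOX2. Without peaks under 20 bases it was 10 of 11 and 3 of 5. The same share over each whole list was not computed, so the bunching is not shown to be particular to these genes. HNRNPA1 and HNRNPM had no peak in either list. No peak lay on the opposite strand of any span. The spans add up to 209 kb. Those of HNRNPU and HNRNPA2B1, 15 and 12 kb, are shorter than the genes of GENCODE release 29 (23.9 and 28.5 kb in GRCh38), but widening every span by 20 kb on each side added no peak. Span ends are known only to the kb, so a distance from a 5′ end is not a distance from a transcription start. Whether a peak lay in an exon, an intron or an untranslated region was not analysed here, for want of hg19 gene models.

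**Figure D1:**
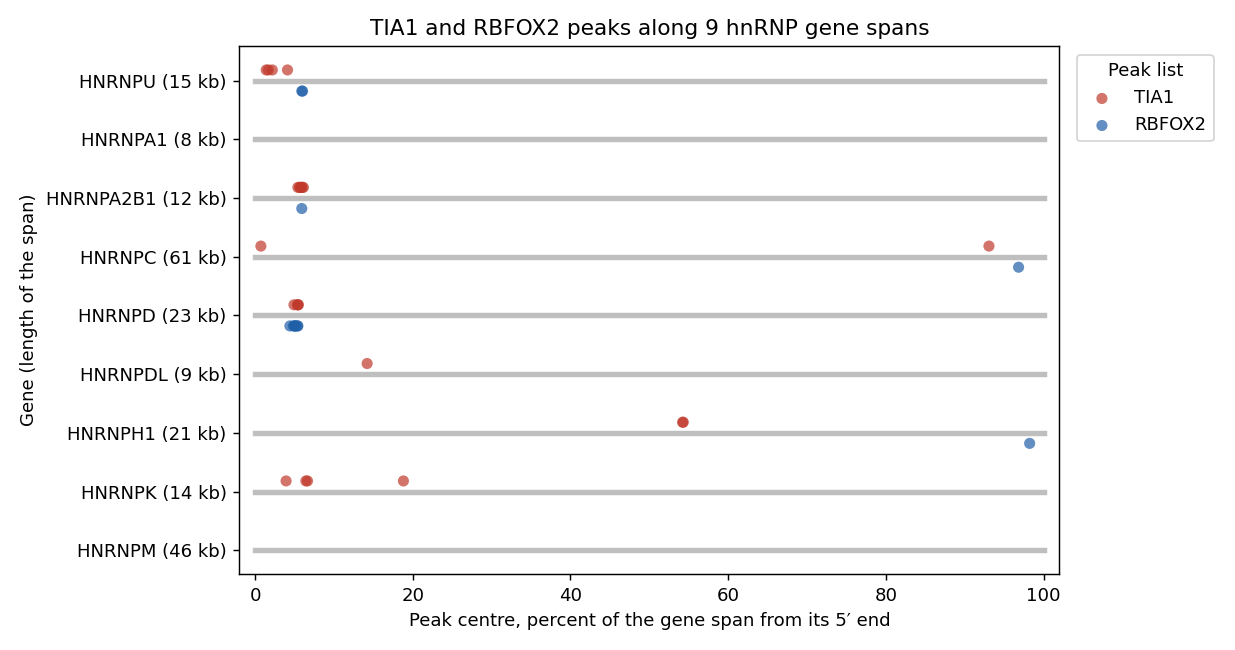
Position of every peak along the 9 gene spans, with the 5′ end of each span at the left and the peak centre as a percentage of the span length; TIA1 peaks are drawn above and RBFOX2 peaks below each line. Within 1.5 kb of the 5′ end stand 19 TIA1 and 10 RBFOX2 peaks, and the lines of HNRNPA1 and HNRNPM are empty.

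The RNA under the peaks needs the hg19 genome and is not shown. The GCATG element was instead searched in 1 spliced coding RNA per gene from GENCODE release 29 (GRCh38), on the RNA's own strand, and no match was joined to a peak by position. The windows below are shown because element numbers and RBFOX2 peak counts ran in different orders across these genes. Each window has the GCATG in capitals with 12 bases on either side, as DNA letters, 5′ to 3′, and each name carries the position of the element's first base in the spliced RNA.
HNRNPU coding, 1534: gccactgttcccGCATGttctctgccaca
HNRNPC 3′ untranslated, 1616: gaatgagagttgGCATGtcaaatgcatcc
HNRNPH1 5′ untranslated, 37: agtcatctcgcaGCATGtgtgcacatggg
HNRNPH1 3′ untranslated, 3430: tgaaacattttgGCATGtttgttaattct
HNRNPK coding, 1228: accgttacgacgGCATGgttggtttcagt
HNRNPM coding, 1294: ccggcatggagcGCATGggcgcgggcctg
HNRNPM coding, 1387: gctccgtggagcGCATGggctccggcatt
HNRNPM coding, 1669: ctggcctggagcGCATGggccccgtgatg

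The spliced RNA of HNRNPM held 27 GCATG elements, all in its coding part, and no RBFOX2 peak was listed on the gene. This was the highest number among its 11 coding transcripts, which held 1 to 27. Of the 27, 24 stood in a stretch of 578 bases, from base 1285 to base 1862 of the RNA. The letters GAGCGCATGGGC surrounded 14 of the 27, among them all 3 HNRNPM windows above. The search took GCATG whatever base came before it. None of the 27 read TGCATG, and in those 14 the base before GCATG was C. Of 19669 genes, 14 had at least as many in the RNA chosen for them, HNRNPM included (0.0712%). At the other end, neither HNRNPD nor HNRNPA2B1 had any GCATG in the chosen RNA, although both had RBFOX2 peaks and HNRNPD had the most, at 7. None of the 8 coding transcripts annotated for HNRNPD and none of the 4 for HNRNPA2B1 held the element.

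The other 6 RNAs lay between. HNRNPH1 had 9 GCATG elements, of which 4 were in the 5′ untranslated part, 2 in the coding part and 3 in the 3′ untranslated part. Its chosen transcript has a 5′ untranslated part of 1536 bases, and over its 26 coding transcripts the number ran from 0 to 9. HNRNPU had 2 elements, and HNRNPA1, HNRNPC, HNRNPDL and HNRNPK had 1 each. Over all coding transcripts the number ran from 0 to 4 in HNRNPU and from 0 to 3 in HNRNPC. It was 0 or 1 in HNRNPA1, HNRNPDL and HNRNPK. The element was held by 9 of 10 transcripts of HNRNPU, 9 of 26 of HNRNPC and 2 of 9 of HNRNPA1. For HNRNPDL it was 3 of 6 and for HNRNPK 5 of 6. At least 1 GCATG stood in 7 of the 9 chosen hnRNP RNAs and in 84.3% of all 19669 chosen RNAs, so most chosen RNAs hold the element. Introns were not searched, and a match or the lack of one says nothing of binding at a peak.

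Runs of at least 5 T, a simple U-rich element, stood in all 9 hnRNP RNAs and in 81.5% of all RNAs. The 9 RNAs held 96 such runs, 81 of them in the 3′ untranslated part, 8 in the coding part and 7 in the 5′ untranslated part. The median per RNA was 9 runs here and 4 over all RNAs, and in the 3′ untranslated part 8 and 2. Run numbers were not adjusted for length, and the 3′ untranslated part had from 263 bases in HNRNPM to 4156 in HNRNPU. Runs were counted in the chosen transcript only, so how they vary between transcripts of a gene is not known. HNRNPU had 19 runs and HNRNPD 17, while HNRNPA2B1 and HNRNPM had 5 each. With those 5 runs, HNRNPA2B1 had 6 TIA1 peaks and HNRNPM had none. The 6 is the highest count of the 9 genes only while abutting pieces are counted apart: with peaks within 50 bases joined, HNRNPA2B1 had 1 TIA1 site, HNRNPK 3, and HNRNPU, HNRNPC and HNRNPD 2 each.

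**Figure D2:**
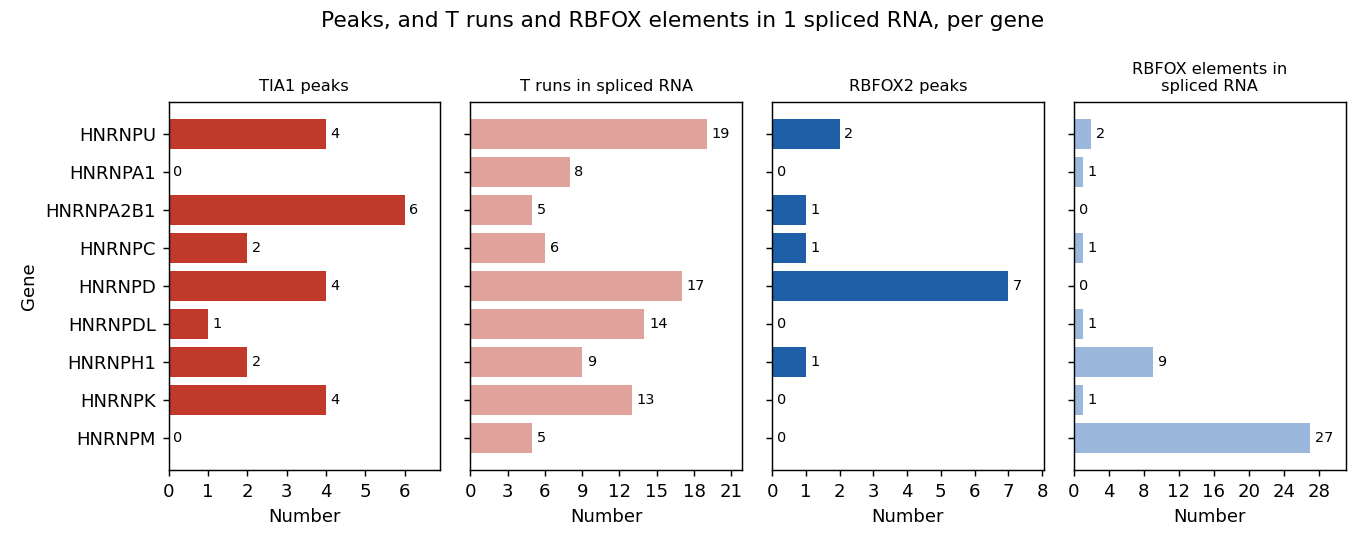
Number of TIA1 peaks, T runs, RBFOX2 peaks and RBFOX elements (any GCATG) for each of the 9 genes, as bars from 0, with T runs and elements counted in 1 spliced RNA per gene from GENCODE release 29. HNRNPM has 27 elements and 0 RBFOX2 peaks, and HNRNPD has 0 elements and 7 RBFOX2 peaks.

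Among the genes for core proteins of the hnRNP particle, HNRNPA2B1 had the densest TIA1 peaks, at 0.50 per kb of span when each abutting peak is counted. It encodes hnRNP A2 and B1, which act in splicing and in mRNA transport. Its 6 TIA1 peaks abutted one another without a gap over 120 bases, at chr7:26240250-26240369 on the minus strand. The highest log2 folds of clip over input were 3.72 at chr7:26240320-26240326 and 3.72 at chr7:26240327-26240369, which form the 5′ end of the stretch. The highest −log10 p was 67.2, at chr7:26240250-26240278, where the log2 fold was 3.44. Along the stretch the log2 fold ran from 3.26 to 3.72, and the 5′ end had the highest folds and the lowest −log10 p (39.8 and 44.6).

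The single RBFOX2 peak of HNRNPA2B1, chr7:26240279-26240299, lay inside the TIA1 stretch, with log2 fold 3.27 and −log10 p 49.9. It covered exactly a pair of TIA1 peaks, chr7:26240279-26240288 (log2 fold 3.39, −log10 p 62.6) and chr7:26240289-26240299 (log2 fold 3.26, −log10 p 64.0). Both proteins were thus listed at the same 21 bases. How well each immunoprecipitation worked is not known, so the folds of the lists are set side by side and not compared.

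HNRNPC encodes a nuclear protein that binds uridine tracts and packages nascent RNA. Its peaks stood at opposite ends of the gene. The upstream TIA1 peak, chr14:21737513-21737580 on the minus strand, was 68 bases wide with log2 fold 3.08 and −log10 p 14.0. The downstream TIA1 peak, chr14:21681227-21681236, lay 93.1% of the way along the span, with log2 fold 3.70 and −log10 p 6.26. The RBFOX2 peak, chr14:21678899-21678981, lay further on, at 96.8% of the span, with log2 fold 3.76 and −log10 p 4.80. This was the highest RBFOX2 fold on the 9 genes and the only one of the 12 above the median of its list, with the second lowest −log10 p of the 12. It was separated from the downstream TIA1 peak by 2245 bases.

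HNRNPA1, the gene of a shuttling splicing repressor of the same core group, had no peak on the plus strand of chromosome 12 between 54673 and 54681 kb. GENCODE release 29 names 75 pseudogenes after HNRNPA1, against 0 to 9 for each of the other 8 genes. The sources do not say how reads that map to several copies were handled, and the part of these copies in the empty span was not tested. The lists hold only peaks past the authors' limits, so an empty span is not a measure of absent binding.

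HNRNPU encodes a nuclear scaffold protein, also called SAF-A, that binds both RNA and chromatin. Its RNA held the TIA1 peak with the highest fold on the 9 genes. This peak, chr1:245027771-245027803 on the minus strand, had log2 fold 4.11, or 17.2-fold, and stood at rank 231 of 3215. It alone among the hnRNP peaks reached a log2 fold of 4, a level met by 9.21% of all TIA1 peaks and 19.3% of all RBFOX2 peaks. The abutting downstream peak, chr1:245027723-245027770, had log2 fold 3.24. In both of these the −log10 p stood at 400, the highest value in the lists.

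Further downstream on HNRNPU, the TIA1 peak chr1:245027665-245027678 had log2 fold 3.07 and −log10 p 62.4, and chr1:245027378-245027387 had log2 fold 3.10 and −log10 p 47.5. All 4 TIA1 peaks thus lay between 0.21 and 0.62 kb from the end of the span, with the highest fold nearest to it. The RBFOX2 peaks were an abutting pair, chr1:245027106-245027116 (log2 fold 3.06, −log10 p 41.3) and chr1:245027087-245027105 (log2 fold 3.10, −log10 p 31.7). They began 261 bases downstream of the last TIA1 peak, so on HNRNPU the listed peaks of the proteins were neighbours that shared no base. Both RBFOX2 folds were close to the lowest log2 fold listed, 3, and binding under that limit is not seen. Whether the proteins bind separate sites was not tested.

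HNRNPD encodes AUF1, which binds AU-rich elements and governs mRNA decay. Its RNA held the most RBFOX2 peaks, 7, and 4 TIA1 peaks, all within 257 bases of the minus strand and between 1.02 and 1.26 kb from the 5′ end of the span. The TIA1 peaks formed a joined site, chr4:83294731-83294771, and a separate peak upstream, chr4:83294839-83294890. Within the site, going upstream, chr4:83294731-83294741 had log2 fold 3.13 and −log10 p 63.0, chr4:83294742-83294756 had 3.11 and 85.0, and chr4:83294757-83294771 had 3.18 and 400. The separate peak had the higher log2 fold, 3.63, and the lower −log10 p, 42.8.

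RBFOX2 peaks of HNRNPD fell on the same places. The peaks chr4:83294747-83294755 (log2 fold 3.23, −log10 p 31.8) and chr4:83294756-83294766 (log2 fold 3.08, −log10 p 33.4) lay within the joined TIA1 site. The peaks chr4:83294835-83294867 (log2 fold 3.25, −log10 p 28.6) and chr4:83294868-83294891 (log2 fold 3.35, −log10 p 21.6) together covered the whole of the separate TIA1 peak. The highest RBFOX2 fold, 3.47 on the log2 scale with −log10 p 26.4, was in chr4:83294828-83294834, which touched no TIA1 peak. The other 2 RBFOX2 peaks, also clear of TIA1 peaks, had log2 folds of 3.03 and 3.07.

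HNRNPDL, a close relative of HNRNPD that lies near it on the same strand, had a single TIA1 peak and no RBFOX2 peak. The peak, chr4:83350674-83350768, was 95 bases wide, the widest of the 35, with log2 fold 3.20 and −log10 p 7.99. The relatives thus differed in the lists, with 11 peaks on HNRNPD and 1 on HNRNPDL. With peaks within 50 bases joined the difference was smaller, at 2 TIA1 and 3 RBFOX2 sites on HNRNPD and 1 TIA1 site on HNRNPDL. The lists hold no read counts, so the levels of the RNAs could not be set beside this.

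**Figure D3:**
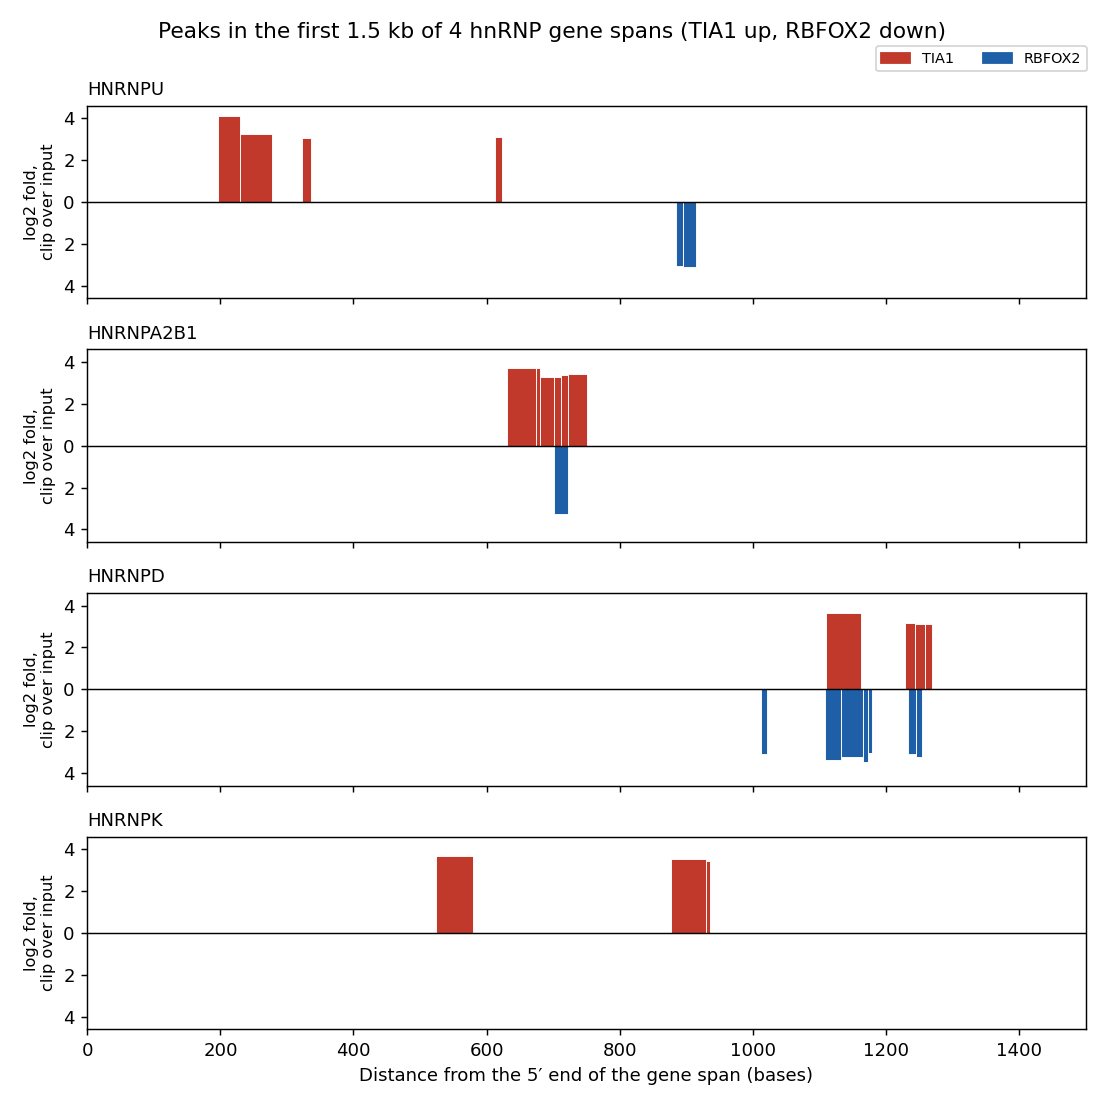
Peaks in the first 1.5 kb of the spans of HNRNPU, HNRNPA2B1, HNRNPD and HNRNPK, with distance from the 5′ end of the span in bases on the x axis and the authors' log2 fold of clip over input as bar height (TIA1 upwards, RBFOX2 downwards, bar width equal to peak width). TIA1 and RBFOX2 bars face each other on HNRNPA2B1 and HNRNPD and lie 261 bases apart on HNRNPU, and HNRNPK has TIA1 bars only.

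HNRNPK encodes a protein with KH domains that binds C-rich RNA, and its gene hosts the microRNA gene MIR7-1. It had 4 TIA1 peaks on the minus strand and no RBFOX2 peak. Going downstream, chr9:86595422-86595476 came first, with log2 fold 3.68 and −log10 p 14.9. An abutting pair followed, chr9:86595072-86595123 (log2 fold 3.52, −log10 p 30.2) and chr9:86595066-86595071 (log2 fold 3.43, −log10 p 26.2). The last, chr9:86593365-86593367, was 3 bases wide and 2.63 kb from the 5′ end, with log2 fold 3.76 and −log10 p 25.8. All 4 folds were above the median of 3.36 of the TIA1 list, which held for no other of these genes.

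HNRNPH1 encodes a splicing regulator that binds G-rich tracts. Its TIA1 peaks lay mid-span, at 54.2 to 54.3% of it, and not at its 5′ end. They were an abutting pair, chr5:179050599-179050631 (log2 fold 3.17, −log10 p 8.61) and chr5:179050596-179050598 (log2 fold 3.10, −log10 p 8.60), 11.4 kb from the 5′ end of the span. RefSeq gives 4 starts for HNRNPH1 in GRCh38, and the other 3 lie 10.2, 11.1 and 11.4 kb downstream of the first. The spans are in hg19 and only to the kb, so whether the peaks lie at such a start was not tested.

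The RBFOX2 peak of HNRNPH1, chr5:179041353-179041394, was at the far end of the span, 98.2% along it. It had log2 fold 3.32 and −log10 p 4.42, the lowest −log10 p of all 35 peaks. On HNRNPH1, as on HNRNPC and HNRNPU, the most 3′ peak of the gene was an RBFOX2 peak, and on HNRNPH1 it stood 9201 bases from the nearest TIA1 peak. On HNRNPD and HNRNPA2B1 the most 3′ peak was a TIA1 peak. The RBFOX2 peaks of HNRNPH1 and HNRNPC were the 2 of the 12 further than 1.5 kb from a 5′ end, and the 2 with −log10 p under 5. HNRNPM, the gene of another splicing regulator, had no peak on the plus strand of chromosome 19 between 8509 and 8555 kb.

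Most peaks on hnRNP RNAs had a high −log10 p for their list, but not on every gene. Their median −log10 p was 44.6 in TIA1, against 7.36 over the whole list, and 27.5 in RBFOX2, against 6.77. The top 10.0% of each list by −log10 p held 17 of the 23 TIA1 peaks and 8 of the 12 RBFOX2 peaks. Those 17 were all on HNRNPU, HNRNPA2B1, HNRNPD and HNRNPK, and those 8 all on HNRNPU, HNRNPA2B1 and HNRNPD. The TIA1 peaks of HNRNPC, HNRNPDL and HNRNPH1 had −log10 p from 6.26 to 14.0. The value of 400 was reached by 3 of the 23 TIA1 peaks, on HNRNPU and HNRNPD, against 2.02% of the list, and by 0 of the 12 RBFOX2 peaks, against 0.686%. The next values below 400 were 86.8 for TIA1 and 83.8 for RBFOX2, so 400 appears to be a ceiling and not a measured value. A −log10 p of at least 5 was met by 23 of 23 TIA1 peaks (71.4% of the list) and 10 of 12 RBFOX2 peaks (68.4%).

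By fold the hnRNP peaks of RBFOX2 were low for their list, and those of TIA1 had no stable place in theirs. In RBFOX2 the median log2 fold was 3.24 for the hnRNP peaks and 3.48 for all peaks, and 11 of 12 lay below the list's median. In TIA1 it was 3.26 for the hnRNP peaks and 3.36 for all peaks, with 12 of 23 below the list's median. The TIA1 order turned round when peaks under 20 bases were left out of both (3.44 for hnRNP peaks, 3.36 for all) and when peaks within 50 bases were joined (3.57 and 3.37). Under the same settings the RBFOX2 medians kept their order, at 3.32 and 3.48 without short peaks and 3.27 and 3.49 with joined peaks. A joined site takes its highest fold, and joining left 12 units of 23 hnRNP peaks and 2413 of 3215 in the whole TIA1 list. With −log10 p of at least 5 both lists kept their order, at 3.26 and 3.39 in TIA1 and 3.17 and 3.55 in RBFOX2. No test was run, since peaks of 1 RNA are not independent and each list joins both replicates without a value per replicate.

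**Figure D4:**
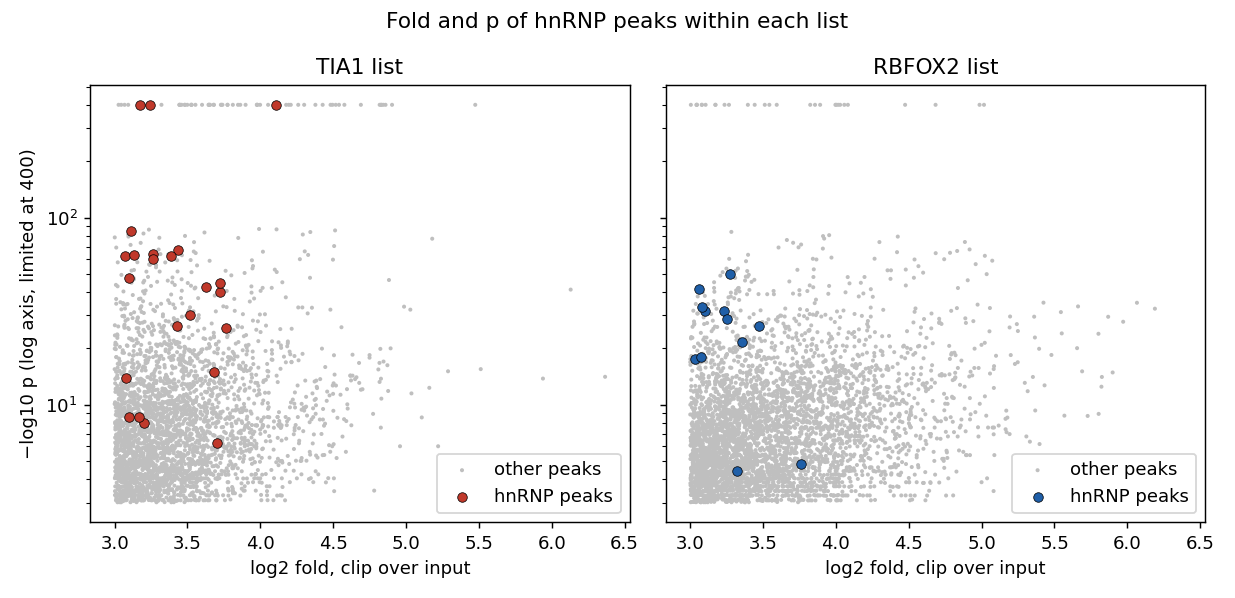
Authors' log2 fold of clip over input (x axis) and −log10 p (y axis, log scale) of every peak, with the TIA1 list at the left and the RBFOX2 list at the right; hnRNP peaks are coloured and all others grey. Most hnRNP peaks sit high in both lists, with median −log10 p of 44.6 and 27.5, and 11 of the 12 RBFOX2 peaks lie left of their list's median log2 fold of 3.48.

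The hnRNP peaks were also short. Their median width was 15 bases in both lists, against 61 bases for all TIA1 peaks and 70 for all RBFOX2 peaks, and they covered 643 bases in TIA1 and 275 in RBFOX2. A width under 20 bases was found in 12 of 23 TIA1 peaks, against 18.8% of the list, and in 7 of 12 RBFOX2 peaks, against 9.79%. Many of them were pieces of a longer run: another peak of the list abutted 15 of 23 TIA1 peaks (35.3% of the list) and 8 of 12 RBFOX2 peaks (43.4%). Another peak stood within 1 kb on the strand for 19 of 23 TIA1 peaks (53.7% of the list) and 9 of 12 RBFOX2 peaks (66.5%). In the top 10.0% by −log10 p the median width was 15 bases for hnRNP peaks and 42.5 for all TIA1 peaks, and 15 and 41 in RBFOX2. Over each whole list the peaks of highest −log10 p thus had a lower median width than all peaks, while the hnRNP median was 15 bases with or without this restriction.

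With peaks no more than 50 bases apart joined, the 23 TIA1 peaks made 12 sites and the 12 RBFOX2 peaks 7. The widest TIA1 sites were those of HNRNPU, chr1:245027665-245027803 (139 bases), and HNRNPA2B1 (120 bases). Among RBFOX2 sites the lone peak of HNRNPC (83 bases) was followed by chr4:83294822-83294891 on HNRNPD, with 70 bases and 4 peaks. Sites of both proteins overlapped at 3 places, 2 on HNRNPD and 1 on HNRNPA2B1. The same share over all joined sites of each list was not computed, so this count has no background.

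Counted as peaks, 5 of 23 TIA1 peaks on hnRNP RNAs overlapped an RBFOX2 peak by at least 1 base (21.7%, 95% Clopper-Pearson interval 7.46 to 43.7%). Over the whole TIA1 list it was 24.0%, near the hnRNP share. Among 12 RBFOX2 peaks, 5 shared bases with a TIA1 peak (41.7%, 15.2 to 72.3%), against 21.7% over the whole RBFOX2 list, a share within that interval. Without HNRNPD the RBFOX2 share was 20.0%. All of these overlaps were on HNRNPD and HNRNPA2B1, 2 of the 5 genes with peaks of both proteins. The intervals cover counting error only and treat neighbouring peaks as independent. Overlapping pairs shared 9 to 29 bases, apart from 1 pair on HNRNPD that shared a single base.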

How the data were processed

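TIA1 and RBFOX2 eCLIP was deposited as 1 peak list per protein, each tied by the labels to 2 clip and 2 input libraries. The submitters' processing notes name cutadapt 1.14, STAR 2.4.0i, UMI-tools 1.0.0, SAMtools 1.6 and hg19, without roles. No source used here names a peak caller. The deposited columns carry no header, and from their ranges they were read as the authors' −log10 of a p-value (ending at 400) and the authors' log2 fold (never below 3), taken as clip over input. No read counts are given, so depth is unknown. Peaks under the limits are not seen. The labels use both biological and technical for the replicates.

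Peaks were assigned to 9 gene spans by strand, and overlaps, joined sites and medians were computed with Python 3.11.15, pandas 2.3.3, numpy 2.4.6 and scipy 1.17.1, with code checked on simulated data. A joined site takes the highest value of its peaks. Where a gene had at most 5 peaks in a list, all are named. Otherwise these are the 2 highest by log2 fold, the 2 highest by −log10 p and those overlapping the other list. Motifs were counted in GENCODE release 29 coding transcripts, 1 per gene, chosen by APPRIS rank, then CCDS and basic tags, then length. Other hnRNP genes were not analysed here. The members, alternatives and motifs were chosen with earlier results of these data known.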

Additional observations from a re-analysis of the deposited data

How the results depend on the processing

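Of 68 recomputed summary values, 44 stayed within 1.5 times (counts), the 95% interval (shares) or 0.005 (median log2 fold) of the value given, and 24 did not. The 95% intervals are wide, so overlap shares counted as staying ran from 9.09% to 43.5% in TIA1 and from 20.0% to 58.3% in RBFOX2. The TIA1 extremes came from leaving out peaks under 20 bases and from counting RBFOX2 peaks within 50 bases. Whole-list overlap shares were not computed under the alternative settings, so these shares have no background. A log2 fold of at least 4 left 1 TIA1 peak, on HNRNPU, with a median log2 fold of 4.11, 0% overlap, 1 site and 1 peak within 1.5 kb of a 5′ end. It left 0 RBFOX2 peaks, so 0 sites and 0 near a 5′ end, and no RBFOX2 median or share. Leaving out peaks under 20 bases left 11 TIA1 and 5 RBFOX2 peaks, with median log2 folds of 3.44 and 3.32, 10 and 3 of them near a 5′ end, and 4 RBFOX2 sites. Joining peaks within 50 bases gave 12 TIA1 and 7 RBFOX2 units, with median log2 folds of 3.57 and 3.27, and 9 and 5 near a 5′ end. A joined site takes its highest fold, which raises its median by construction. Without the gene with most peaks the median was 3.20 in TIA1 (HNRNPA2B1 left out) and 3.27 in RBFOX2 (HNRNPD left out). With −log10 p of at least 5 it was 3.17 in RBFOX2. That limit took the RBFOX2 peaks of HNRNPC and HNRNPH1 away, the width limit those of HNRNPU, and joining moved the most TIA1 units from HNRNPA2B1 (1) to HNRNPK (3). Where no cause is given, the cause was not tested. Widening the spans by 1 kb changed no value, nor did 20 kb, chosen after seeing the data. Neither added a peak, so these values, counted among the 44, could not move. A −log10 p of at least 5 removed no TIA1 hnRNP peak. Its TIA1 counts of peaks, of sites and of peaks near a 5′ end, and its TIA1 median, could not move either. The 44 is therefore not a measure of how stable the results are. No paired analysis was possible because both replicates were merged into a single list per protein, and leaving out a replicate was impossible too.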
